A study of Mus musculus with 6 samples.

Results

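The genes of heterotrimeric G protein subunits and of regulators of G protein signalling (RGS proteins) were found by symbol among probe sets that the platform annotation pairs with exactly 1 gene. Symbols starting with Gna, Gnb and a digit, Gng, or Rgs and digits were taken, leaving out Rgs5. The search found 122 probe sets of 53 genes, out of 45101 probe sets and 18193 genes in all. They comprise 15 alpha, 5 beta, 11 gamma and 18 RGS genes. The other 4 match by name only and are neither subunits nor RGS proteins: Rgs7bp and Rgs9bp encode anchors for RGS proteins, Gnb1l a protein related to beta subunits, and Gnasas1 an antisense RNA. A further 3 probe sets name a gamma subunit gene together with its pseudogene and were left out. By the limit set for this comparison, a mean intensity of at least 50 in at least 1 group, 79 of the 122 probe sets and 40 of the 53 genes were measured. The other 13 genes lay between 3.60 and 40.2 in every array. Among these were the photoreceptor alpha subunits Gnat1 and Gnat2, the gamma subunits Gng8, Gngt1 and Gngt2, Gna14, Gna15, Gnb3, Rgs1, Rgs11 and Rgs18.

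Heterotrimeric G proteins carry signals from receptors that span the cell membrane to enzymes and channels inside the cell. An alpha subunit, which binds GTP, sits with a pair made of a beta and a gamma subunit, and each of them acts on targets once a receptor has loaded the alpha subunit with GTP. RGS proteins speed the hydrolysis of that GTP and so shorten the signal. In the cortex these proteins serve the receptors for serotonin, noradrenaline, acetylcholine, GABA and glutamate.

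Both groups are messenger RNA that was bound to tagged ribosomes and pulled out of the mouse cortex, a method called TRAP, in BAC transgenic mice. One line, ES691, expresses the tag under the S100a10 driver and the other, DU9, under the Glt25d2 driver, the gene now named Colgalt2. Each group has 3 arrays labelled as biological replicates and is 1 transgenic line. All mice had been backcrossed for 3 to 5 generations from FVB to C57BL/6 and received no treatment. Neither the age of the mice nor the number pooled per sample is stated in the labels. The study set the lines side by side as 2 kinds of cortical pyramidal cell, and its text warns that some cells marked by the S100a10 transgene are not neurons.

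All differences below are log2 values of S100a10 minus Glt25d2, fitted with limma over all 11821 measured genes, and all adjusted p values are limma's after Benjamini-Hochberg adjustment. The median intensity of an array was 20.4 to 21.3 in the Glt25d2 group and 35.5 to 35.8 in the S100a10 group. These medians lie under the limit of 50, and centring subtracts them on the log2 scale from every gene alike. The median measured gene differed by 0.56 as deposited. The same median was -0.02 after quantile normalization and -0.21 after centring each array on its median. The value of each G protein and RGS gene is therefore given under these 3 scalings where its direction or its call changes. Counts of cell type markers are as deposited unless said otherwise, beside 44.7% of all genes higher and 4.59% lower. Each driver was higher in its own line: S100a10 by 2.25 (SE 0.14, limma adjusted p = 0.000107), and Colgalt2 at least 21.1-fold in Glt25d2 arrays against a value of 50. Markers of pyramidal cells were present in both groups, with Neurod6, the brightest, at 3016 to 4812 in Glt25d2 and 6597 to 7439 in S100a10 arrays. Of 7 measured, 3 were higher and 0 lower. Slc17a7 read only 134, 138 and 46.1 in Glt25d2 arrays. Camk2a, at -0.43, did not pass, but passed in the lower direction at -0.88 after quantile normalization and -1.20 after centring. Genes of other cell types were present too. Of 9 interneuron genes 4 were higher (Lhx6, Dlx1, Sst and Npy, by 1.38 to 3.46) and 1, Pvalb, was at -2.43. Sst did not pass after centring, at 2.11. Glt25d2 replicate 3 was the lowest array for Sst and Npy, and without it they differed by 1.97 and 2.59. Of 9 astrocyte genes 3 were higher and 2 lower, with summed intensities of 11382 to 20888 in Glt25d2 and 23003 to 28553 in S100a10 arrays. Slc1a2 among them read 2714, 3159 and 372 in Glt25d2 replicates 1, 2 and 3. Without Glt25d2 replicate 3, 5 astrocyte genes were higher and 3 lower. Of 8 oligodendrocyte genes 2 were lower and none higher, with sums of 18859 to 25192 and 9968 to 16716. After quantile normalization 5 of the 8 were lower, and after centring 6. The summed intensity of 11 genes of mural cells and fibroblasts was 336 to 492 in Glt25d2 and 8291 to 10739 in S100a10 arrays, and 8 of the 8 measured were higher. A gene kept through the S100a10 group alone is bound to lean higher, so this count is no test of direction. The part of these cell types in the differences of the G protein and RGS genes was not tested, and in such bulk samples fewer cells of a type and less messenger per cell cannot be told apart. Glt25d2 replicate 3 was more than 2-fold under the average of the other two Glt25d2 arrays for 1716 of the 11821 genes, but for 0 of the 40 G protein and RGS genes.

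For 4 of the genes the DNA just upstream of the annotated start is printed to show the promoters that belong to the differences described below. Rgs16 and Gna12 were higher in S100a10 cells, Gnai1 was lower, and Rgs2 was lower by 2 of its 3 measured probe sets. Each window holds the 250 bases before the start, 5′ to 3′ on the gene's strand, from RefSeq with the build GRCm38.p6, and 38 of the 53 genes had such a window. Capitals mark the GC box GGGCGG, the half-site TGACG of the cyclic AMP response element, and the CCAAT box, on either strand.
Rgs16, chr1:153740103-153740352, plus strand: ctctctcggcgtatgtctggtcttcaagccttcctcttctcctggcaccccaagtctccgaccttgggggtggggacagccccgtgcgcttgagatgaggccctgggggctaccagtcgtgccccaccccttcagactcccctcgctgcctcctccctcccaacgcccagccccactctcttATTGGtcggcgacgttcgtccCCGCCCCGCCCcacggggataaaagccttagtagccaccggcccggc
Gna12, chr5:140830432-140830681, minus strand: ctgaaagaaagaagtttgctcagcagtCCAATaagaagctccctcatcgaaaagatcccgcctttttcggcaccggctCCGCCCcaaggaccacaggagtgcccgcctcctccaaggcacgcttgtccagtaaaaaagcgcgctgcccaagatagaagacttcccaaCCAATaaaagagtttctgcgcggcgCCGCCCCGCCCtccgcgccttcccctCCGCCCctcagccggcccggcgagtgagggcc
Gnai1, chr5:18360414-18360663, minus strand: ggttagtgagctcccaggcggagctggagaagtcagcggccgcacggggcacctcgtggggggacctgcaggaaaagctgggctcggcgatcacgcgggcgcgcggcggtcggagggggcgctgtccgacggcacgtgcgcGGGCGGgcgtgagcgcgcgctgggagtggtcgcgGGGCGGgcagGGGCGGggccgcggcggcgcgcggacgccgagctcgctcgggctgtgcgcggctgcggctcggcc
Rgs2, chr1:144004150-144004399, minus strand: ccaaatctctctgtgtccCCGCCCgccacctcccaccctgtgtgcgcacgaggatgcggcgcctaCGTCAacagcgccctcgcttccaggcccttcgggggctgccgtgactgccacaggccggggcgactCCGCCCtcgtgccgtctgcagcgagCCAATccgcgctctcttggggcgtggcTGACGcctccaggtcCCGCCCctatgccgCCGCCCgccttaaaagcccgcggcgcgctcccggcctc

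The GC box was found 2 times in the Rgs16 window, 4 times for Gna12, 3 times for Gnai1 and 4 times for Rgs2, counting copies that overlap by a base. It occurs in 32.7% of the 32851 windows of this length in the table. The half-site TGACG was found 2 times for Rgs2 and in none of the other three windows, against 17.8% of all windows. The CCAAT box, in 33.8% of all windows, was found once each for Rgs16 and Rgs2, 2 times for Gna12 and not for Gnai1. These matches describe the letters of the windows, and whether any factor binds there was not measured.

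As deposited, 18 of the 40 measured genes were higher in S100a10 arrays and 3 were lower, which is 45.0% and 7.5% of them. Among all 11821 genes 44.7% were higher and 4.59% lower, so the share higher is close to that of all genes. The median difference of the 40 genes was 0.35, beside 0.56 for all genes. Arrays of the 2 groups did not overlap for 27 of the 40, with S100a10 above in 20 and below in 7, where 55.9% of all genes lay above and 7.9% below. A difference of at least 2-fold was found for 7 genes higher and 1 lower, where 24.1% and 1.04% of all genes met the same rule.

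After quantile normalization 12 of the 40 genes were higher and 13 lower, against 18.7% and 19% of all genes. After centring 6 were higher and 20 lower, against 16.6% and 31.8% of all genes. The median of the 40 genes was then -0.04 and -0.42, beside -0.02 and -0.21 for all genes. Under all 3 scalings 6 genes were called higher, Gnai2, Gna12, Gng11, Rgs3, Rgs10 and Rgs16, where 15.2% of all genes were, and these 6 were called in each of the 17 fits made (7.46% of all genes). Gnai1, Gnb4 and Rgs12 were called lower under all 3 scalings, where 4.59% of all genes were, but none of them in each of the 17 fits (1.4% of all genes). All 542 genes lower as deposited stayed lower after both rescalings, so passing all 3 adds nothing to a lower call as deposited. Without Glt25d2 replicate 3, 22 of 39 genes were higher and 3 lower, where 55.9% and 6.33% of all genes were. Without that array 12 were higher and 14 lower after quantile normalization (24.2% and 23.5% of all genes), and 8 and 19 after centring (20.3% and 39.2%).

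**Figure D1:**
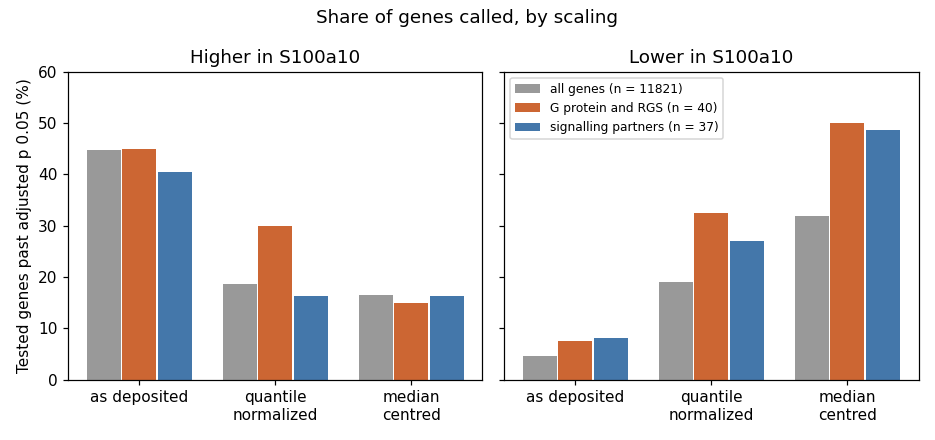
Bars give the percent of measured genes with a limma adjusted p under 0.05, higher (left) or lower (right) in S100a10, for all 11821 genes, the 40 G protein and RGS genes and 37 signalling partner genes under 3 scalings. The share of G protein and RGS genes called lower goes from 7.5% as deposited to 50.0% after centring, and that of all genes from 4.59% to 31.8%.

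Among the alpha subunits, 6 of 11 measured genes were higher in S100a10 cells, 1 was lower and 4 did not pass, beside 44.7% and 4.59% of all genes. The balance turned with the scaling, to 4 higher and 2 lower after quantile normalization and 2 higher and 4 lower after centring. Those of the inhibitory Gi/o group, which lower cyclic AMP and whose beta-gamma partners open potassium channels, moved apart from one another. Gnai2 (probe set 1435652_a_at) read 1402, 1161 and 966 in Glt25d2 and 3835, 4718 and 3798 in S100a10 samples. Every S100a10 array stood well above every Glt25d2 array, and the means were 1177 ± 219 and 4117 ± 521 (SD, n = 3 each). The groups were 1.82 apart (SE 0.18, limma adjusted p = 0.000531). It was 1.43 after quantile normalization and 1.05 after centring, and the second measured probe set of the gene differed by 1.62.

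Gnai1, a close relative of Gnai2, went the other way. Its values (probe set 1454959_s_at) were 21439, 21439 and 22441 in Glt25d2 and 15729, 16638 and 15952 in S100a10 arrays, so that all S100a10 arrays lay below. The difference was -0.43 (SE 0.09, limma adjusted p = 0.00827), or -0.60 after quantile normalization and -1.20 after centring. Its other two probe sets differed by -1.12 and -0.46, and the latter did not pass in the fit of all probe sets (limma adjusted p = 0.0579). The log2 ratio of Gnai2 over Gnai1 within an array, from which any scale factor of the array drops out, was -3.93, -4.21 and -4.54 in Glt25d2 and -2.04, -1.82 and -2.07 in S100a10 arrays. It thus differed by 2.25 between the groups, a pair chosen after its values were seen and given without a test.

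The neuronal subunit Gnao1, the most abundant G protein alpha subunit of brain membranes, averaged 3130 ± 186 over the Glt25d2 and 5489 ± 161 over the S100a10 arrays (SD, n = 3 each). It was higher by 0.81 (SE 0.09, limma adjusted p = 0.00106). Gnaz, a subunit of the same group that resists pertussis toxin, differed by 0.98 (SE 0.10, limma adjusted p = 0.000782). After centring the values were 0.04 for Gnao1 and 0.21 for Gnaz, and neither passed. A second Gnaz probe set differed by -0.09 as deposited, and without S100a10 replicate 1 it becomes the brighter one and the gene's value is -0.033. Gnai3 at 0.70 did not pass, but was 0.95 and passed without Glt25d2 replicate 3, and it was -0.07 after centring. A second Gnai3 probe set, at 0.80, passed over probe sets as deposited.

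Gna12 encodes the alpha subunit for which the G12 group is named. Its measured probe set (1455008_at) read 54.6 in each Glt25d2 sample and 251, 222 and 202 in S100a10 samples. The groups are far apart, by 2.03 (SE 0.11, limma adjusted p = 6.5e-05), or by 1.15 after quantile normalization and 1.27 after centring. The identical Glt25d2 values, close to the limit of 50, give that group no spread. At least 2 Glt25d2 arrays held 1 identical value for 9 of the 40 genes, as they did for 2609 of all 11821. At least 2 S100a10 arrays did so for 0 of the 40 and 19 of all 11821. Gna13, the partner of Gna12 in the G12 group, differed by 0.44 (SE 0.37) by its brightest probe set and did not pass. That probe set read 697, 1101 and 1734 in Glt25d2 and 1886, 1515 and 1153 in S100a10 arrays, which overlap. Gna13 was measured by several probe sets. Of its 7 kept probe sets 2 lay under 50 in every Glt25d2 array. The other 5 had positive differences, from 0.44 to 1.41, and 4 of them passed. Among those 4, probe set 1460317_s_at, at 0.94, averaged 47.3 in Glt25d2 and 92.9 in S100a10 arrays. Like the first 2, it was kept through the S100a10 group alone. The gene passed at 0.76 without Glt25d2 replicate 3, and was -0.03 after quantile normalization and -0.33 after centring, which did not pass. As the average over its 7 kept probe sets the gene passed at 1.06, but that average includes the probe sets kept through the S100a10 group alone.

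Of the stimulatory subunits, which raise cyclic AMP, 1 of 2 was higher as deposited and both were lower after centring. Gnas (1450186_s_at) encodes the main stimulatory subunit and read 24330, 23473 and 22053 in Glt25d2 and 29064, 28266 and 27876 in S100a10 arrays. The S100a10 arrays were all higher, by 0.29 (SE 0.09, limma adjusted p = 0.0411), but after centring it passed in the lower direction, at -0.48 (limma adjusted p = 0.00841). It did not pass at 0.10 after quantile normalization, nor at values between 0.25 and 0.32 when any 1 of the 6 arrays was left out. The probe sets of Gnal, the olfactory and striatal relative, disagree: the brightest by its mean log2 value differed by 0.03, with overlapping arrays, and another by -1.44 (SE 0.21, limma adjusted p = 0.00287 over probe sets). The first probe set gave -0.085 without S100a10 replicate 3, and it passed in the lower direction at -0.47 after quantile normalization and at -0.74 after centring.

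Of the Gq group, which drives phospholipase C, Gna11 was higher by 0.77 (SE 0.18, limma adjusted p = 0.0162), a call that was lost without S100a10 replicate 1 (0.76, adjusted p = 0.0582) or S100a10 replicate 3 (0.74, adjusted p = 0.0597) and after quantile normalization (0.33) or centring (0.01). Gnaq differed by -0.08 (95% interval -0.54 to 0.38) and its 7 measured probe sets by -0.08 to 0.40, none of which passed. Without Glt25d2 replicate 3 Gnaq was 0.16, without S100a10 replicate 2 it was 0.002, and after centring it was -0.85 and passed.

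**Figure D2:**
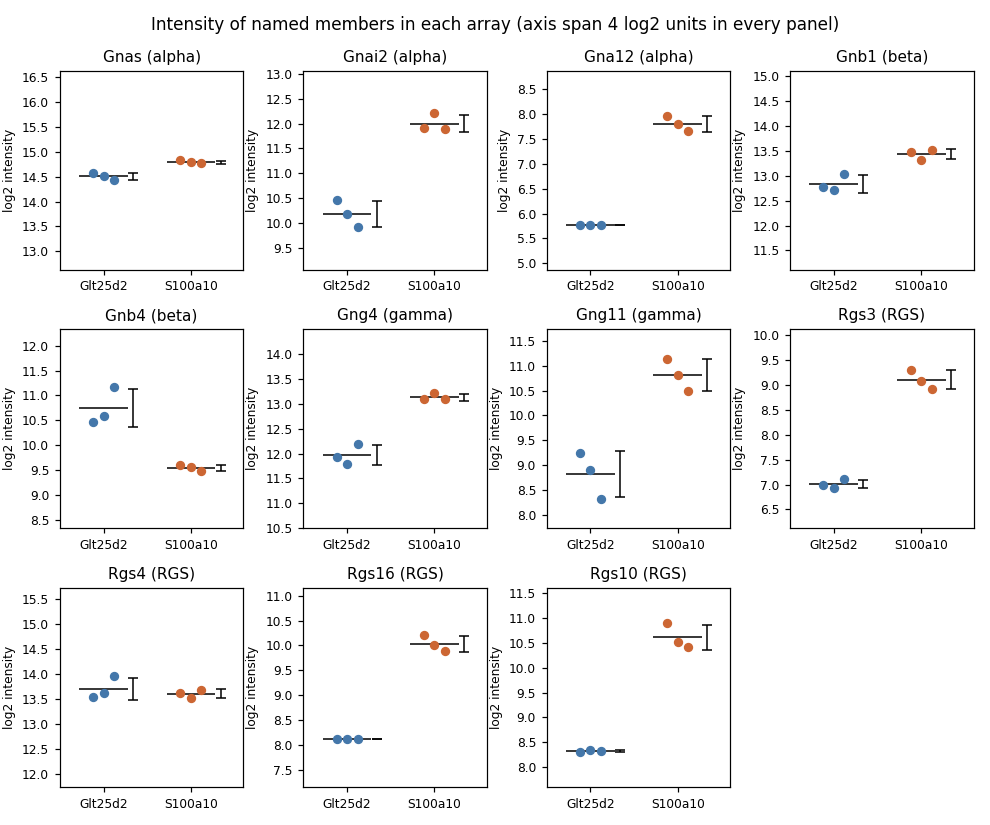
Points give the log2 intensity of each of the 3 arrays per group for 11 genes, horizontal lines the group mean, and the bar beside it 1 SD; every panel spans 4 log2 units. For Rgs10, Rgs3, Gna12, Gng11, Rgs16, Gnai2, Gng4, Gnb1 and Gnas every S100a10 array lies above every Glt25d2 array, for Gnb4 every one lies below, and for Rgs4 the groups overlap.

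Beta subunits form a propeller that holds the gamma subunit. Gnb4 (1419470_at) was lower in S100a10 cells, with 1409, 1537 and 2315 in Glt25d2 and 779, 755 and 716 in S100a10 arrays. The groups did not overlap, Glt25d2 replicate 3 was the highest of the 6, and the difference was -1.19 (SE 0.20, limma adjusted p = 0.00492), or -0.97 without that array. It was -1.67 after quantile normalization and -1.96 after centring. Of the other two Gnb4 probe sets 1 differed by -0.99 and passed, and 1 by 0.41 and did not. With the gene read as the average over its probe sets, the difference was -0.59 and did not pass (limma adjusted p = 0.055).

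Gnb1 (1454696_at), a beta subunit found in most tissues, read 6976, 6708 and 8424 in Glt25d2 and 11420, 10278 and 11665 in S100a10 arrays. All S100a10 arrays were higher, by 0.60 (SE 0.13, limma adjusted p = 0.0109), or 0.39 after quantile normalization, with a sign that turned to -0.17 after centring. The log2 ratio of Gnb1 over Gnb4 within an array was 1.86 to 2.31 in Glt25d2 and 3.77 to 4.03 in S100a10 arrays. Gnb2 at 0.31 did not pass with all arrays, passed at 0.38 without Glt25d2 replicate 3, and passed in the lower direction at -0.46 after centring (limma adjusted p = 0.029). Gnb5, the beta subunit that pairs with RGS proteins of the R7 group in place of a gamma subunit, was -0.53 (SE 0.19, limma adjusted p = 0.0603), with all S100a10 arrays below, and -0.69 without Glt25d2 replicate 1, which passed. It also passed after quantile normalization, at -0.88, and after centring, at -1.30, while a second probe set differed by 0.46 and passed over probe sets.

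Gamma subunits are small proteins that anchor the beta-gamma pair in the membrane through a lipid at their end. Of 8 measured, 4 were higher in S100a10 cells, none was lower and 4 did not pass, beside 44.7% and 4.59% of all genes. The counts were 3 higher and 2 lower after quantile normalization, and 1 and 3 after centring. Gng11 (1448942_at), a widely expressed form, read 604, 481 and 322 in Glt25d2 and 2249, 1796 and 1436 in S100a10 arrays. The lowest S100a10 array was more than double the highest Glt25d2 array, and the difference was 1.98 (SE 0.28, limma adjusted p = 0.00247), or 1.46 after quantile normalization and 1.22 after centring. Gng4 (1447669_s_at), a neuronal form, had 3922, 3538 and 4696 against 8743, 9469 and 8746. The groups are well separated, by 1.16 (SE 0.13, limma adjusted p = 0.00104), by 0.91 after quantile normalization and by 0.39, which did not pass, after centring. A second Gng4 probe set differed by 1.92, and the third, under 50 in all Glt25d2 arrays, was at least 1.69-fold higher.

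Gng10 was higher by 0.97 (SE 0.18, limma adjusted p = 0.00668), though its value of 0.20 after centring did not pass. Gng3, the gamma subunit of mature neurons, was higher by 0.67 (SE 0.19, limma adjusted p = 0.0321) as deposited. That call was lost without Glt25d2 replicate 2 (0.49), S100a10 replicate 1 (0.73), S100a10 replicate 2 (0.58) or S100a10 replicate 3 (0.69), and the value was 0.38 after quantile normalization and -0.10 after centring. Gng12 at 0.38 passed only when Glt25d2 replicate 3 was left out, at 0.60, and was -0.18 and -0.38 after the rescalings. Gng2, Gng7 and Gng13 had values of -0.26, -0.58 and -0.19 that did not pass. Gng7, a partner of Gnal in striatal neurons, was -1.18 after quantile normalization and -1.35 after centring and passed in both, as Gng13 did at -0.64 and -0.96. Gng2 passed after centring, at -1.03.

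**Figure D3:**
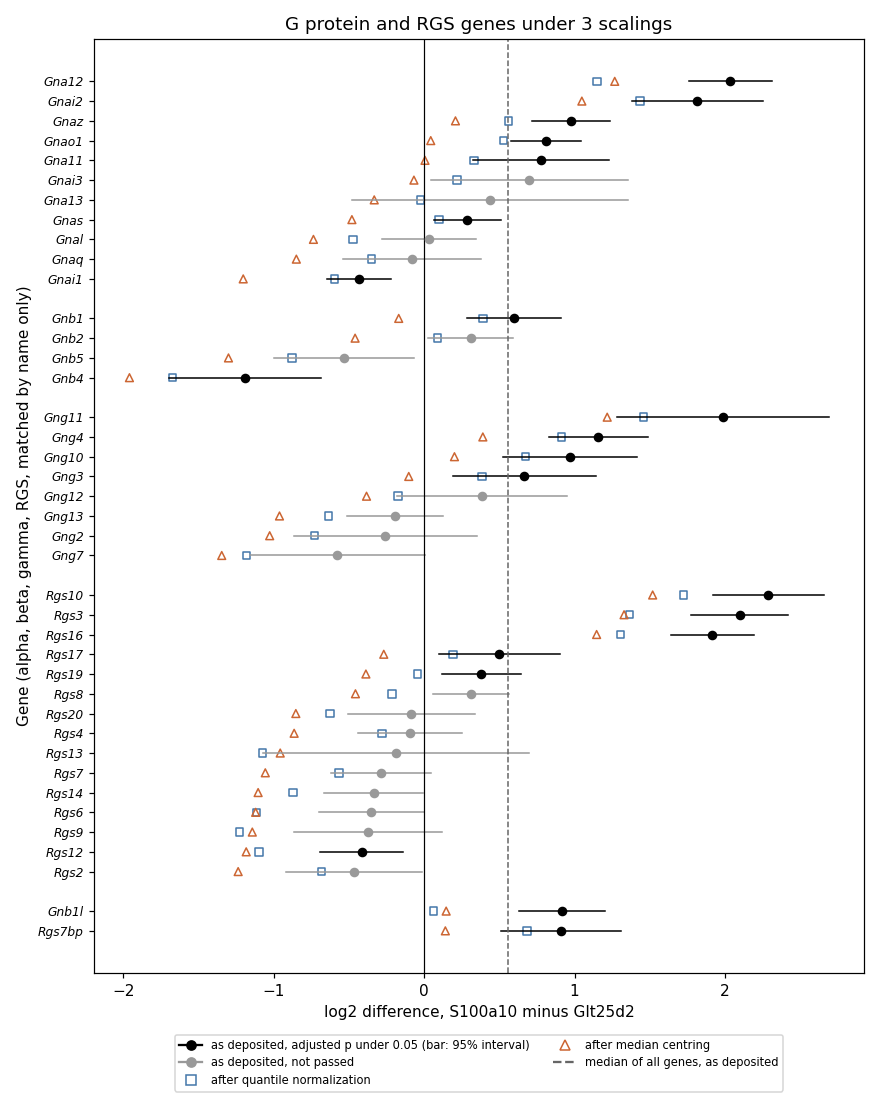
Filled points give the log2 difference S100a10 minus Glt25d2 of the 40 measured genes by class, with 95% intervals (black where the limma adjusted p is under 0.05); open squares and triangles give it after quantile normalization and after centring, and the dashed line is the median of all genes, 0.56. Rgs10, Rgs3, Gna12, Gng11, Rgs16 and Gnai2 lie above 0 under all 3 scalings and Gnb4, Rgs12 and Gnai1 below it.

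RGS proteins were measured for 15 of 18 genes, of which 5 were higher in S100a10 cells, 1 was lower and 9 did not pass, where 44.7% and 4.59% of all genes were higher and lower. After quantile normalization 3 were higher and 7 lower, and after centring 3 and 10. Rgs10, Rgs3 and Rgs16 were higher under each of the 3 scalings. Rgs10 (1416882_at), a short RGS protein that acts on Gi/o subunits and is abundant in microglia as well as in neurons, read 318, 323 and 319 in Glt25d2 and 1910, 1469 and 1359 in S100a10 arrays. The Glt25d2 arrays were within a narrow band and every S100a10 array was over 4 times as high, a difference of 2.29 (SE 0.15, limma adjusted p = 0.000119), the greatest among the 40 genes as deposited, or 1.72 after quantile normalization and 1.52 after centring. Of 8 microglial markers 5 were measured and 1, Tmem119, was higher; P2ry12, Itgam and C1qa lay under 50 in every array. The summed intensity of the 8 was 343 to 683 in Glt25d2 and 675 to 1067 in S100a10 arrays, and its part in the Rgs10 difference was not tested.

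Rgs3 (1425296_a_at), a member of the R4 group that acts on Gi/o and Gq subunits, read 127, 122 and 138 in Glt25d2 and 634, 542 and 487 in S100a10 arrays. Those values are far apart, with a difference of 2.10 (SE 0.13, limma adjusted p = 0.000102), or 1.36 and 1.33 after the rescalings. Its second probe set, under 50 in all Glt25d2 arrays, was at least 1.98-fold higher in S100a10 arrays. That probe set was kept through the S100a10 group alone, so its direction is no test. The Rgs3 probe sets that were not measured leaned the other way, under 50 in every array. Probe set 1449516_a_at read 46.4 in each Glt25d2 array and 25.6 to 33.8 in S100a10 arrays, and 1454026_a_at 43.4 to 44.0 and 25.4 to 26.5. Rgs16 (1455265_a_at), also of the R4 group, read 278 in all 3 Glt25d2 arrays and 1177, 1026 and 950 in S100a10 arrays. It differed by 1.91 (SE 0.11, limma adjusted p = 8.21e-05), or 1.30 and 1.15 after the rescalings, and a second probe set, with 63.3 to 68.0 against 305 to 501, by 2.59. The first probe set, too, has no spread among Glt25d2 arrays.

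Rgs8, also of the R4 group, lies next to Rgs16 among the protein-coding genes of its chromosome. It had 756, 756 and 848 in Glt25d2 and 944, 936 and 1047 in S100a10 arrays. All S100a10 arrays were higher, but by only 0.31 (SE 0.10, limma adjusted p = 0.0501), which did not pass; without Glt25d2 replicate 3 it was 0.37 and passed. It was -0.21 after quantile normalization, which did not pass, and -0.46 after centring, which passed in the lower direction (limma adjusted p = 0.0209). The log2 ratio of Rgs16 over Rgs8 within an array was -1.61 to -1.45 in Glt25d2 and -0.14 to 0.32 in S100a10 arrays, ranges that do not overlap.

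Other R4 genes are prominent in neurons. Rgs4 (1416286_at), a regulator of Gi/o and Gq signalling in cortical pyramidal cells, read 11885, 12576 and 15855 in Glt25d2 and 12568, 11721 and 13163 in S100a10 arrays. The groups overlap, and the difference was -0.10 (95% interval -0.44 to 0.25, limma adjusted p = 0.587), or 0.029 without Glt25d2 replicate 3 and -0.86, which passed, after centring. Its other two probe sets differed by -0.46 and -0.63, of which the second passed over probe sets.

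Rgs2, which acts chiefly on Gq and is induced by cyclic AMP and by neuronal activity, had 9838, 12804 and 13722 in Glt25d2 and 10297, 8287 and 7644 in S100a10 arrays by its brightest probe set. These overlap, and the difference of -0.47 (SE 0.18, limma adjusted p = 0.0795) did not pass, but it did at -0.61 without Glt25d2 replicate 1. The second probe set read 7423, 7353 and 7942 against 4134, 3834 and 4008, a difference of -0.92 (SE 0.09, limma adjusted p = 0.00065 over probe sets) with no overlap, and the third differed by -0.90. After quantile normalization the brightest probe set was -0.68 and passed, and after centring it was -1.24. Rgs13, with 1 of 6 arrays well above 50, Glt25d2 replicate 3 at 88.3, was measured through that array alone in its group, at -0.19.

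The R7 group, whose proteins bind Gnb5 and act on Gi/o subunits, had 3 measured genes. Rgs6 was -0.35, Rgs7 -0.29 and Rgs9, known from the striatum, -0.37, and none passed as deposited. All 3 passed in the lower direction after quantile normalization, at -1.12, -0.57 and -1.23, and after centring, at -1.12, -1.06 and -1.14. For Rgs6 and Rgs7 every S100a10 array was below every Glt25d2 array. For Rgs9 the groups overlapped, because S100a10 replicate 2 read 138 where the other two read 81.9 and 107, and without that array it was -0.56 and passed. Rgs7bp, the membrane anchor of this group, was higher by its brightest probe set, at 0.91 (SE 0.16, limma adjusted p = 0.00568), with 4468 to 5790 in Glt25d2 and 8611 to 11176 in S100a10 arrays. Its other two probe sets differed by 0.14 and -0.17, and after centring the first was 0.14, which did not pass.

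In the R12 group, besides Rgs10, Rgs12 was lower, at -0.42 (SE 0.11, limma adjusted p = 0.0258), with 459, 449 and 448 in Glt25d2 and 303, 339 and 378 in S100a10 arrays. The groups did not overlap, yet the call was lost without Glt25d2 replicate 1 (-0.40), Glt25d2 replicate 2 (-0.42), S100a10 replicate 1 (-0.34) or S100a10 replicate 2 (-0.42), while after quantile normalization it was -1.10 and after centring -1.18. Rgs14, a scaffold that also binds Ras and Rap proteins, was -0.34 with all S100a10 arrays below and did not pass as deposited, but did at -0.87 and -1.10 after the rescalings. The log2 ratio of Rgs10 over Rgs12 within an array was -0.53 to -0.47 in Glt25d2 and 1.85 to 2.65 in S100a10 arrays, the widest of the 4 ratios computed here, all of them between genes picked after their values were seen.

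In the RZ group, which includes regulators of Gnaz, Rgs17 at 0.50 (SE 0.16, limma adjusted p = 0.0471) and Rgs19 at 0.38 (SE 0.11, limma adjusted p = 0.0289) were higher as deposited. A second probe set of each, at 0.14 for Rgs17 and 0.23 for Rgs19, did not pass over probe sets. The call of Rgs17 was lost without Glt25d2 replicate 1 (0.43), Glt25d2 replicate 2 (0.46), S100a10 replicate 1 (0.38), S100a10 replicate 2 (0.59) or S100a10 replicate 3 (0.52). That of Rgs19 was lost without Glt25d2 replicate 1 (0.36), Glt25d2 replicate 2 (0.36), S100a10 replicate 2 (0.33) or S100a10 replicate 3 (0.37). After quantile normalization they were 0.19 and -0.05, and after centring -0.27 and -0.39. Rgs19 thus passed in the opposite direction after centring (limma adjusted p = 0.0375), and Rgs17 did not pass in either. Rgs20 at -0.09 did not pass, was 0.076 without Glt25d2 replicate 3, and passed at -0.63 and -0.85 after the rescalings. Gnb1l, matched by name only, was higher by 0.91 as deposited and did not pass after either rescaling, at 0.06 and 0.15.

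Of the 40 genes, 22 had more than 1 measured probe set. In 15 of these all probe sets had differences of 1 sign, and in 7 they had both: Gnal, Gnaq, Gnaz, Gnb4, Gnb5, Gng2 and Rgs7bp. The 15 include Gna13, Gng4 and Rgs3, each with at least 1 probe set kept through the S100a10 group alone. Such probe sets are bound to lean higher, so for these genes the shared sign is no test of direction. Over the 79 probe sets, 32 were higher and 9 lower, where 44.2% and 4.39% of all 21291 were. Of the 32, 3 lay under 50 in every Glt25d2 array and were kept through the S100a10 group. A further 1, of Gna13, averaged 47.3 in Glt25d2 arrays and was kept in the same way. The counts were 15 and 24 after quantile normalization, where 16.8% and 19.4% were. Which transcripts each probe set detects was not analysed here, so differences between probe sets of a gene are given as measured.

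**Figure D4:**
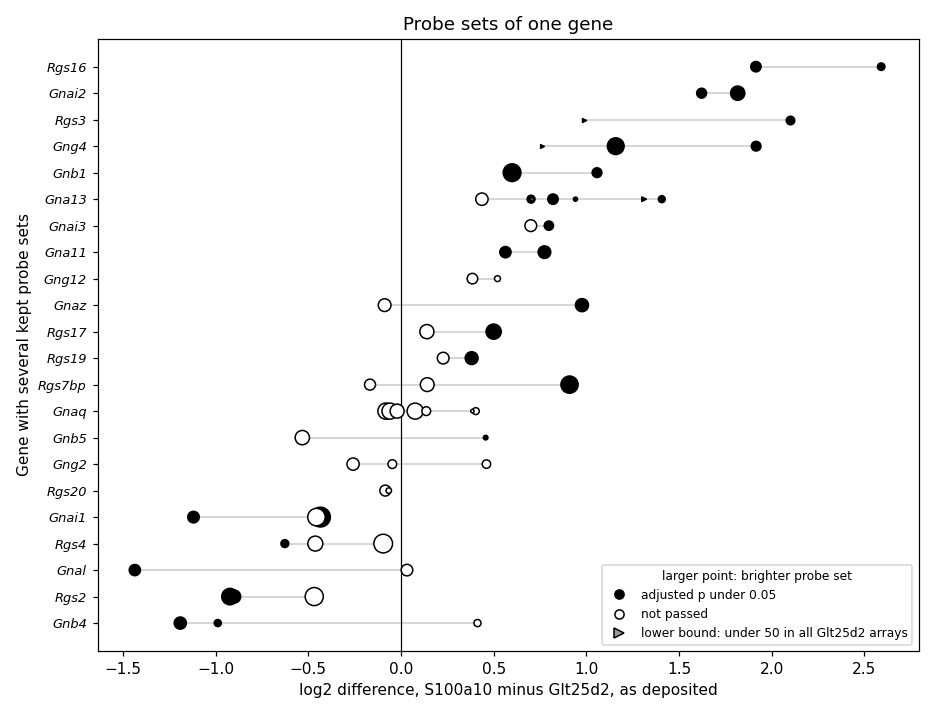
Each point is a probe set of the 22 genes with several measured probe sets, placed by its log2 difference S100a10 minus Glt25d2 as deposited, filled where the limma adjusted p over all probe sets is under 0.05, and larger where brighter; triangles are lower bounds for probe sets under 50 in every Glt25d2 array. The 2 probe sets of Rgs16 lie at 1.91 and 2.59, whereas those of Gnal lie at 0.03 and -1.44.

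Other genes of the pathway were taken as a list of 47 receptor kinases, arrestins, effectors, exchange factors and modulators, of which 37 were measured. As deposited 15 were higher and 3 lower, where 44.7% and 4.59% of all genes were, with a median of 0.36 against 0.56 for all genes; 3 of the 15 lay under 50 in every Glt25d2 array and have only a bound. The counts were 6 and 10 after quantile normalization, where 18.7% and 19% of all genes were, 6 and 18 after centring, where 16.6% and 31.8% were, and 18 and 6 without Glt25d2 replicate 3, where 55.9% and 6.33% were. Toward S100a10 cells, the rule named Rasd2, Grk5, Gpsm3, Plcb3 and Arhgef1, of which the last 3 were kept through the S100a10 group alone and have no order. Gpsm3, a modulator that binds Gi subunits, was under 50 in every Glt25d2 array and at 132, 90 and 96 in S100a10 arrays, at least 2.09-fold higher. Plcb3, a phospholipase C driven by Gq and by beta-gamma pairs, was at least 3.46-fold higher, and Arhgef1, an effector of Gna12 and Gna13, at least 3.00-fold.

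Rasd2, a Ras-like protein of striatal and cortical neurons, read 376, 368 and 413 in Glt25d2 and 2338, 2854 and 2519 in S100a10 arrays, groups far apart, with a difference of 2.73 (SE 0.11, limma adjusted p = 2.95e-05). Grk5, a kinase that silences active receptors, differed by 1.96 (SE 0.19, limma adjusted p = 0.000546). In the other direction, Kctd8, an auxiliary subunit of GABA-B receptors, read 245, 219 and 293 in Glt25d2 and 75, 89 and 84 in S100a10 arrays, without overlap, a difference of -1.60 (SE 0.14, limma adjusted p = 0.000394). Plcb4, the phospholipase C relative of Plcb3, read 3106, 2890 and 3507 against 1509, 1470 and 1344, a difference of -1.13 (SE 0.11, limma adjusted p = 0.000624), opposite to its relative as deposited. Prex1, an exchange factor for Rac driven by beta-gamma pairs, was -0.91 (SE 0.21, limma adjusted p = 0.0143) and did not pass without S100a10 replicate 3 (-0.87, adjusted p = 0.0558). After centring the 5 of these genes that were measured in both groups kept their direction and passed, Rasd2 at 1.97 and Kctd8 at -2.37 being the outermost.

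**Figure D5:**
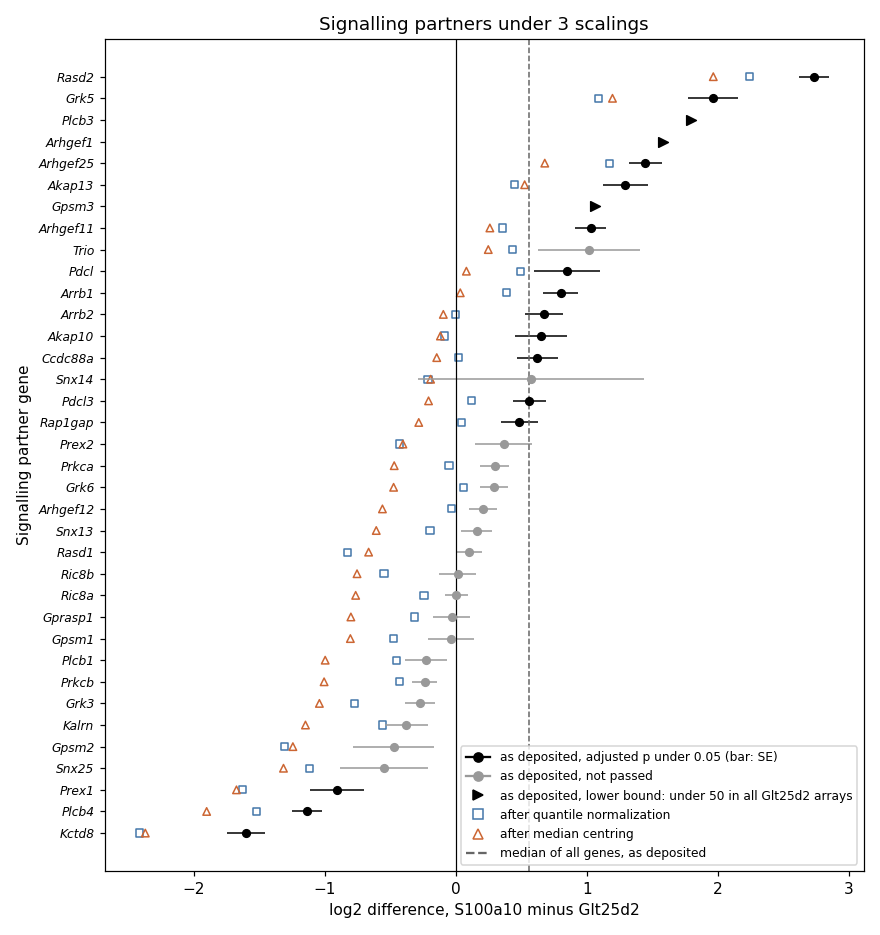
Points give the log2 difference S100a10 minus Glt25d2 of 36 of the 37 measured partner genes with SE bars, black where the limma adjusted p is under 0.05; open squares and triangles give the values after quantile normalization and after centring. Filled triangles are lower bounds for genes under 50 in every Glt25d2 array, and Gpr158, whose bound is under 1-fold, is left out. Rasd2 lies at 2.73 and Kctd8 at -1.60 as deposited, and the dashed line marks the median of all genes, 0.56.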

How the data were processed

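TRAP RNA of 6 samples, 3 per group, went through a 2-cycle amplification from 15 ng and onto Affymetrix mouse arrays, per the labels. The intensity of each probe set, as deposited, is on a linear scale and comes from GCRMA, per the submitters' processing notes, which name no version. From the 45101 probe sets 64 controls were removed; in the platform annotation 34945 of the rest have 1 symbol, 932 have several and 9160 have none. Log2 intensities (no pseudocount) were compared between the groups by limma 3.58.1 under R 4.3.3, using lmFit and eBayes with the group as the only term. Tests were 2-sided with a threshold of 0.05 after Benjamini-Hochberg adjustment over all measured genes, or all measured probe sets where stated.

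A probe set was measured if its mean reached 50 in at least 1 group, and each gene was read from its measured probe set with the greatest average log2 intensity. Where a group lay under 50 in every array, only a bound is given, against 50, from the mean log2 of the higher group, and hold for the deposited scaling. The members and lists were chosen with earlier results of these data known. By rule, values in every array are given for members past the threshold and at least 2-fold apart and for the brightest of each class, and up to 5 partners per direction with the greatest fitted differences are named. Members shown in full beyond that were chosen after their values were seen. Of 47 listed partners, 43 had a probe set of their own. The fit was tested on simulated data. The number of arrays limits the precision, and where labels say no more than biological replicate, p values measure the spread between these samples. The replicate numbers were not taken to pair the samples. Deviations of same-numbered arrays from their group means correlated at -0.49, 0.27 and -0.26 over the measured genes. Those of differently numbered arrays correlated at -0.44 to 0.49. With 3 arrays per group these values cannot exclude a pairing. Alternatives were 2 filters, 16 added to each value, a floor of 50, quantile normalization, median centring, the replicate block, the average over each gene's measured probe sets, each array left out, and both rescalings without Glt25d2 replicate 3. Tables and plots were made in Python 3.11.15 (pandas 2.3.3, numpy 2.4.6, matplotlib 3.10.9).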

Additional observations from a re-analysis of the deposited data

How the results depend on the processing

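Of the 40 G protein and RGS genes, 38 or 39 kept their direction and their side of the threshold under each other filter, the added 16 and the floor of 50. The scaling and the choice of probe set moved more. With no filter on low values, all 53 G protein and RGS genes were fitted, with the 13 that lay under 50 in every array. Among all 18193 genes 8351 were then higher and 1645 lower, and among the 53 genes 30 were higher. Of the 122 G protein and RGS probe sets 59 were higher and 15 lower, and 5 partners were lower. Apart from quantile normalization with all arrays, the probe set counts in this section stand without the share over all probe sets. They are therefore not read as a result about these genes. After quantile normalization the counts higher and lower were 2212 and 2247 for all genes, 12 and 13 for G protein and RGS genes, 15 and 24 for their probe sets, and 6 and 10 for partners; signs turned for Gnal (-0.47), Gna13 (-0.026), Gng12 (-0.18), Rgs8 (-0.21) and Rgs19 (-0.05). After centring they were 1958 and 3761, 6 and 20, 11 and 34, and 6 and 18, with turned signs for Gnas (-0.48), Gnal (-0.74), Gnai3 (-0.068), Gna13 (-0.33), Gnb1 (-0.17), Gnb2 (-0.46), Gng3 (-0.10), Gng12 (-0.38), Rgs8 (-0.46), Rgs17 (-0.27) and Rgs19 (-0.39). Quantile normalization without Glt25d2 replicate 3 gave 2864 and 2784, 12 and 14, 20 and 25, and 9 and 11, with Gnal at -0.46, Rgs8 at -0.15 and Rgs19 at -0.016. Centring without that array, chosen after seeing the data, gave 2404 and 4635, 8 and 19, 16 and 33, and 7 and 19, with Gnas at -0.50, Gnal at -0.72, Gnb1 at -0.051, Gnb2 at -0.37, Gng3 at -0.045, Gng12 at -0.15, Rgs8 at -0.38, Rgs17 at -0.14 and Rgs19 at -0.33. With each gene read as the average over its measured probe sets, Gnal was -0.70, Gnaq 0.12 and Gng2 0.051. Gnb4 (-0.59), Rgs17 (0.32) and Rgs7bp (0.29) lost their calls. Gnai3 (0.75), Gna13 (1.06, with 2 probe sets under 50 in every Glt25d2 array), Rgs2 (-0.76) and Rgs8 (0.31) gained one. The cause of these shifts was not tested. With 1 array left out, counts ranged from 13 to 22 higher and 2 to 4 lower for G protein and RGS genes, 25 to 43 and 6 to 10 for their probe sets, 10 to 18 and 2 to 6 for partners, and 4263 to 6606 and 369 to 748 for all genes, all the upper ends for higher calls being without Glt25d2 replicate 3. Signs turned without that replicate for Gnaq (-0.24 to 0.16 with 1 array left out), Rgs4 (-0.18 to 0.029) and Rgs20 (-0.18 to 0.076), and without S100a10 replicate 1 for Gnaz (-0.033 to 1.05), replicate 2 for Gnaq (0.002) and replicate 3 for Gnal (-0.085 to 0.10). With the replicate number as a block, which shares a number but no known pairing, 14 G protein and RGS genes were higher and 1 lower, with 25 and 5 of their probe sets, 10 and 3 partners, and 4222 and 327 of all genes. Rgs13 reached the limit of 50 through Glt25d2 replicate 3 and could not be fitted without it.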
